A study of Mus musculus with 22 samples.

Results

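Chemokine ligands are small secreted proteins that draw leukocytes along a gradient. The 9 ligand genes described here were chosen by name: Ccl1, Ccl3, Ccl4, Ccl5, Ccl17, Ccl20, Ccl22, Xcl1 and Cxcl10. Each matched 1 row of a deposited count table of 49671 mouse genes. The table covers 22 RNA sequencing libraries of wild-type TH2 cells, T helper cells polarised in culture towards the type 2 cytokine programme, from Balb/c mice of both sexes aged 6 to 8 weeks. Per the labels, the colony had been fed diets of 400, 1000 or 4000 IU vitamin D3 per kg. RNA was taken on day 5 of polarisation from all cultures. In the final 24 hours, 11 of them received 100 nM calcitriol, the active hormone form of vitamin D, and 11 received the solvent, 2% ethanol, so the question for each ligand is whether calcitriol changed its transcript. The labels do not tie a library to a mouse, sex, diet or culture and do not say whether calcitriol cultures held the same ethanol, so the p-values measure the spread between these libraries, which may be partly technical.

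Ligands act on G protein-coupled receptors and several of them share a receptor. CCL3 and CCL5 bind CCR1, and CCL5 also binds CCR3. CCL17 and CCL22 bind CCR4, and CCL1 binds CCR8, receptors that TH2 cells carry. CCL20 binds CCR6, CXCL10 binds CXCR3 and XCL1 binds XCR1, which is found on cross-presenting dendritic cells. CCL17 and CCL22 are best known as products of dendritic cells and macrophages, and CCL3, CCL4, CCL5 and XCL1 as products of activated cytotoxic T cells and natural killer cells.

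The family is named for the spacing of the first cysteines of the mature protein, and that stretch of the coding sequence is shown for 8 of the ligands because it identifies the 3 subfamilies among the 9 genes. The sequences are those of GENCODE M21 transcripts (GRCm38), 5′ to 3′ on the coding strand, with the cysteine codons of the motif in capitals. In 6 of them the cysteine codons are adjacent, in Cxcl10 another codon lies between them, and in Xcl1 the first cysteine stands alone. The window lies in exon 2 of the transcript in 7 genes and spans the junction of exons 1 and 2 in Ccl20.
Ccl1, chr11:82178096-82178128, minus strand: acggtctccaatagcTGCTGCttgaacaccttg
Ccl4, chr11:83663467-83663499, plus strand: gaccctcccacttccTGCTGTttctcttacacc
Ccl5, chr11:83529230-83529262, minus strand: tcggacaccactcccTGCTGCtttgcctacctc
Ccl17, chr8:94811197-94811229, plus strand: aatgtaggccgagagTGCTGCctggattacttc
Ccl20, chr1:83116902-83117830, plus strand: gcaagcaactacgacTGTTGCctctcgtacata
Ccl22, chr8:94746919-94746951, plus strand: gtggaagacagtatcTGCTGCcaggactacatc
Xcl1, chr1:164932963-164932992, minus strand: ctagaagagagtagcTGTgtgaacttacaa
Cxcl10, chr5:92348169-92348204, minus strand: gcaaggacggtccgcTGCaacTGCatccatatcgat

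The nearest pair by sequence was Ccl3 and Ccl4, with 68.1% of coding bases identical, followed by Ccl3 and Ccl5 with 60.5%. Ccl17 and Ccl22, which share CCR4, had 49.8%. Each had more with its nearest other ligands, Cxcl3 (56.0%) for Ccl17 and Ccl4 and Ccl5 (55.1% each) for Ccl22. Pairs of members from different subfamilies ran from 41.5% (Ccl5 and Xcl1) to 53.6% (Ccl20 and Cxcl10). The values of Ccl17 and Ccl22 lie within or little above that range and do not show which ligand is their closest relative. The genes lie in few places. Ccl3 (chr11:83647844-83649355) and Ccl4 (chr11:83662584-83664683) are 13.2 kb apart on opposite strands, Ccl5 (chr11:83525778-83530518) lies 117 kb from Ccl3, and Ccl1 (chr11:82176657-82305690) lies 1220 kb from Ccl5. Ccl22 (chr8:94745590-94751699) and Ccl17 (chr8:94810453-94812036) are 58.8 kb apart. Ccl20, Xcl1 and Cxcl10 lie alone among the members, on chromosomes 1, 1 and 5. On the opposite strand, Xcl1 overlaps Gm20743 and Cxcl10 overlaps Art3, and the strand setting of the counting is not given in the sources used here, so reads of these pairs cannot be told apart with certainty.

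Library totals ran from 3214171 to 20258430 counts with a median of 7504710. T cell markers (6 of 6 counted) summed to between 2361 and 2957 CPM (reads scaled by depth and composition). The TH2 genes Gata3, Il4, Il5 and Il13 were present in both groups, whereas Il1rl1, the IL-33 receptor, had means of 0.765 and 0.770 CPM. Libraries were joined in pairs where each was the other's closest by correlation within its group, which gave 6 partner sets per group. This rule can give only pairs and single libraries, so the sets are not groups known from the labels. Replicates 1 and 2 of both groups are known from earlier work on these data to stand apart. Some results are therefore also given with sets summed or without those 4 libraries. Of 11905 genes that passed the filter on low counts, 31.5% were called at an adjusted p of 0.05 (edgeR), 16.1% higher and 15.5% lower with calcitriol. Of the 6 T cell markers, 3 were called higher and 2 lower. Il13 fell from 333 ± 104 to 203 ± 106 CPM (SD; -0.72 ± 0.23 on the log2 scale, edgeR adjusted p = 0.0204), while Gata3, Il4 and Il5 were not called.

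The ligands were proposed as products of TH2 cells, but only part of the list was detected in these cultures, and bulk counts do not show which cells made the reads. Ccl3, Ccl4, Ccl5 and Ccl22 were counted in most or all libraries, Ccl1 had 23 reads in all, and Ccl17, Xcl1 and Cxcl10 had 4, 4 and 3. Ccl20 had 0 reads in all 22 libraries, which allows a level of up to 0.0311 CPM in the vehicle and 0.0324 CPM in the calcitriol group (3 counts over the group, counting error only). Only Ccl4, Ccl5 and Ccl22 passed the filter. Of these 3, 1 was called lower and 0 higher, at a background of 15.5% of genes called lower. With no filter, 8 members had a count, and Ccl1, Ccl3 and Ccl4 were called lower (edgeR, adjusted over 27301 genes, of which 6.4% were called lower and 7.11% higher) and 0 were called higher. Of the 15396 genes with a count below the filter, which include Ccl1 and Ccl3, 1.84% were called lower. Some of these genes had only 1 read in all, such as Ccr6, so this is not the share among genes as deep as Ccl3. In bulk RNA, fewer cells making a ligand and less RNA in each cell cannot be told apart.

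Per kilobase of exon, the vehicle libraries held Ccl4 at 7.07 ± 2.32 CPM per kb (SD, n = 11), Ccl5 at 5.79 ± 2.27, Ccl3 at 2.37 ± 1.12, Ccl22 at 1.18 ± 0.788 and Ccl1 at 0.0972 ± 0.0791. The ranges of Ccl4 (3.402 to 10.7) and Ccl5 (3.53 to 10.2) overlapped almost wholly, and those of Ccl3 (0.550 to 4.70) and Ccl22 (0.293 to 2.66) in part. In calcitriol libraries Ccl5 came first at 4.54 ± 1.36 CPM per kb, with Ccl4 at 4.40 ± 1.54, and Ccl22, at 1.05 ± 0.553, lay above Ccl3 at 0.308 ± 0.296. The order of Ccl3 and Ccl22 by mean was the opposite of that in vehicle libraries, a comparison between genes that was not tested. Both orders depend on the length used, that of all annotated exons of a gene joined. In CPM without it, vehicle means were 5.56 for Ccl5 and 4.67 for Ccl4, and 2.75 for Ccl22 and 1.81 for Ccl3. With calcitriol they were 4.35 and 2.91, and 2.45 and 0.236, so neither order then differed between groups.

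**Figure D1:**
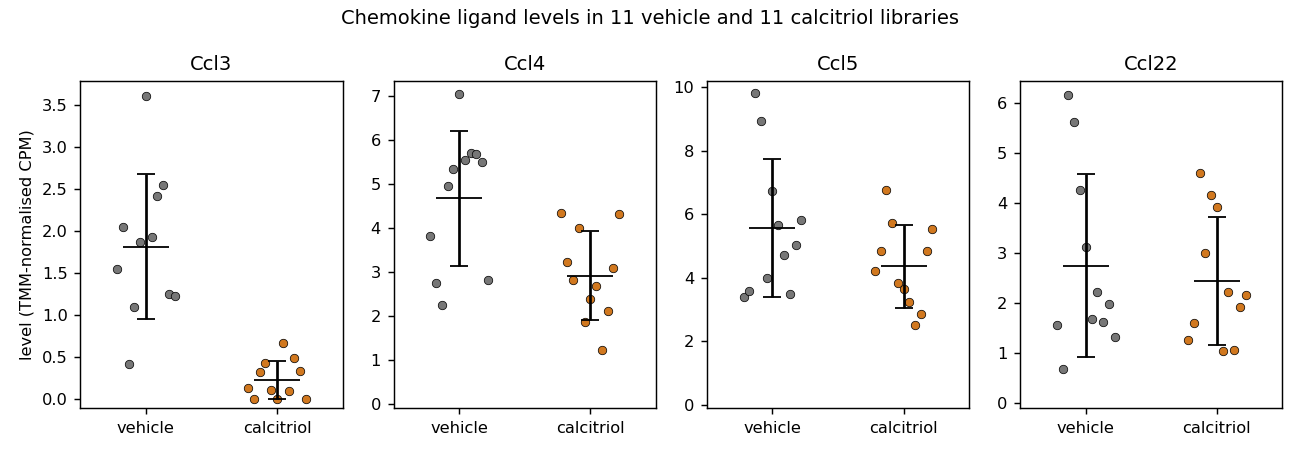
Levels of Ccl3, Ccl4, Ccl5 and Ccl22 (y axis, TMM-normalised CPM) in the 11 vehicle and 11 calcitriol libraries (x axis), with 1 point per library, the mean as a horizontal line and the SD as a bar. For Ccl3, 8 of 11 calcitriol libraries lie below every vehicle library, while the groups overlap widely for Ccl5 and Ccl22.

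Ccl3, a ligand of CCR1 that recruits monocytes and T cells, showed the largest difference among the ligands with over 100 reads. Vehicle libraries held from 3 to 26 reads with a median of 14, 166 in all, and calcitriol libraries from 0 to 7 with a median of 1, 25 in all. As levels these were 0.421 to 3.60 CPM with a median of 1.87 in vehicle, and 0 to 0.666 CPM with a median of 0.140 in calcitriol libraries. Of the vehicle libraries, 10 of 11 lay above every calcitriol library, and the exception was replicate 3 at 0.421 CPM. The ratio of summed counts per effective library size was 0.157 with a 95% counting interval of 0.0984 to 0.239 (exact, counting error only), or 6.39-fold lower with calcitriol. Because Ccl3 was below the filter, its test is the fit with no filter, where it fell by 2.69 ± 0.37 (SE) on the log2 scale (edgeR, adjusted p = 4.35e-08). Leaving out any library gave changes of -2.98 to -2.56 (edgeR, adjusted p from 7.3e-09 to 2.65e-07), and with partner sets summed the value was -2.75 (edgeR, adjusted p = 3.05e-06).

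Ccl4, a monocyte and T cell attractant encoded next to Ccl3, fell less. It had 10 to 37 reads in calcitriol and 16 to 114 in vehicle libraries. Vehicle levels ran from 2.25 to 7.04 CPM with a median of 5.34, and calcitriol levels from 1.21 to 4.34 with a median of 2.80. All 11 calcitriol libraries lay below the vehicle median and 3 of 11 below every vehicle library, so the groups overlapped at the low end of the vehicle values. The change was -0.71 ± 0.21 on the log2 scale, 1.63-fold lower (edgeR, adjusted p = 0.0104). It was called under each of the 33 alternatives in which Ccl4 was tested, with values from -0.88 to -0.62. The lowest vehicle values were in replicates 2, 3 and 11, at 2.73, 2.25 and 2.82 CPM.

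Ccl5, a ligand of CCR1 and CCR3, was not called. Its level ran from 3.39 to 9.82 CPM with a median of 5.02 in vehicle and from 2.52 to 6.75 with a median of 4.20 in calcitriol libraries. The change was -0.38 ± 0.20 on the log2 scale with a 95% interval of -0.77 to 0.00 (edgeR, adjusted p = 0.144). It passed the threshold with surrogate variables as covariates (-0.47, edgeR adjusted p = 0.00753). The highest vehicle libraries were replicates 3 and 4, at 9.82 and 8.92 CPM, and without either the change was -0.27 or -0.29.

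Whether Ccl3, Ccl4 and Ccl5 changed to the same degree was tested on their ratios. Within each library, the log2 ratio of Ccl3 to Ccl4 counts was -1.41 ± 0.56 (SD, n = 11) in vehicle and -3.60 ± 1.31 in calcitriol libraries, a difference of -2.18 ± 0.43 (SE; permutation test, two-sided, adjusted p = 0.00015 over 3 pairs). It was below the vehicle mean in 11 of 11 calcitriol libraries and below every vehicle library in 9. The ratio of Ccl3 to Ccl5 differed by -2.54 ± 0.52 (permutation test, adjusted p = 0.000375). The ratio of Ccl4 to Ccl5 was -0.24 ± 0.80 in vehicle and -0.60 ± 0.38 in calcitriol libraries, a difference of -0.36 ± 0.27 that did not pass (permutation test, adjusted p = 0.194). Without vehicle replicate 3, where this ratio was -2.10, the difference was -0.54 (permutation test, unadjusted p = 0.0153). Only the ratio of Ccl4 to Ccl5 fell under the plan, which took pairs in which both ligands passed the filter. Both ratios with Ccl3 were run after its counts had been seen. Their size depends on the pseudocount of 0.5 that the zero counts need: with 5 they were -0.83 and -1.12 (permutation test, unadjusted p = 0.00035 and 0.00228).

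**Figure D2:**
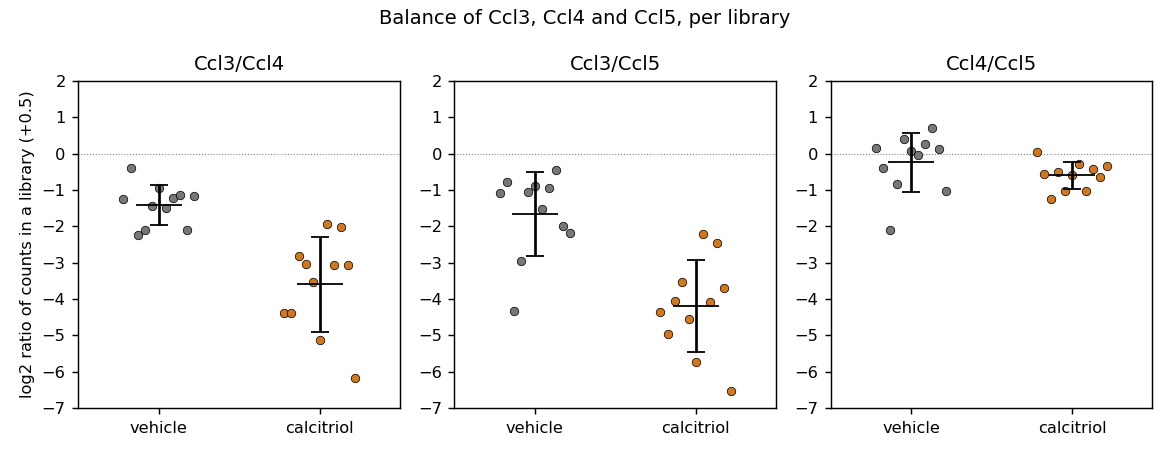
Log2 ratio of read counts (y axis, 0.5 added to each count) for pairs of Ccl3, Ccl4 and Ccl5 in 11 vehicle and 11 calcitriol libraries (x axis), with 1 point per library, the mean as a line and the SD as a bar. The ratio of Ccl3 to Ccl4 lies below every vehicle value in 9 of 11 calcitriol libraries, and the Ccl4 to Ccl5 ratios overlap.

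Ccl22, a CCR4 ligand that attracts TH2 and regulatory T cells, showed no detectable change. It had 242 reads in vehicle and 216 in calcitriol libraries. Levels ran from 0.682 to 6.17 CPM with a median of 1.98 in vehicle, and from 1.05 to 4.61 with a median of 2.16 in calcitriol libraries, so the groups overlapped over almost their whole range. The change was -0.14 ± 0.33 on the log2 scale with a 95% interval of -0.79 to 0.52 (edgeR, adjusted p = 0.797), which does not show equal levels. Its sign turned without vehicle replicate 3 or 4, the libraries with the highest values, to 0.06 and 0.03. Ccl17, the other CCR4 ligand, had 1 read in each of 3 vehicle libraries and in 1 calcitriol library.

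Ccl1, the CCR8 ligand, was counted in 9 of 11 vehicle libraries and in 1 of 11 calcitriol libraries. The vehicle counts were 0 to 7 with a median of 2, 22 reads in all, against 1 read over the calcitriol group. Vehicle replicate 8 had 7 of the reads, and replicates 3 and 7 had 0. The ratio of calcitriol to vehicle was 0.0472 with a 95% counting interval of 0.00114 to 0.292. In the fit with no filter the adjusted p was 0.00125 (edgeR), and it ran from 0.000745 to 0.00524 over the libraries left out in turn, with 0.00444 in DESeq2. The fitted change of such a gene depends on the prior count and is not a measure of size.

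Xcl1 had 4 reads in vehicle libraries, from 3 of them, and 0 in calcitriol libraries, with an upper counting limit of 1.57 for the ratio (edgeR with no filter, adjusted p = 0.110). Cxcl10 had 1 read in vehicle and 2 in calcitriol libraries. At these depths a difference in Ccl17, Xcl1 or Cxcl10 was not detectable. In 0 of the 9 members were the groups free of overlap. Groups lay fully apart, lower with calcitriol, for 1.59% of the genes that passed the filter and 0.736% of all genes with a count.

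**Figure D3:**
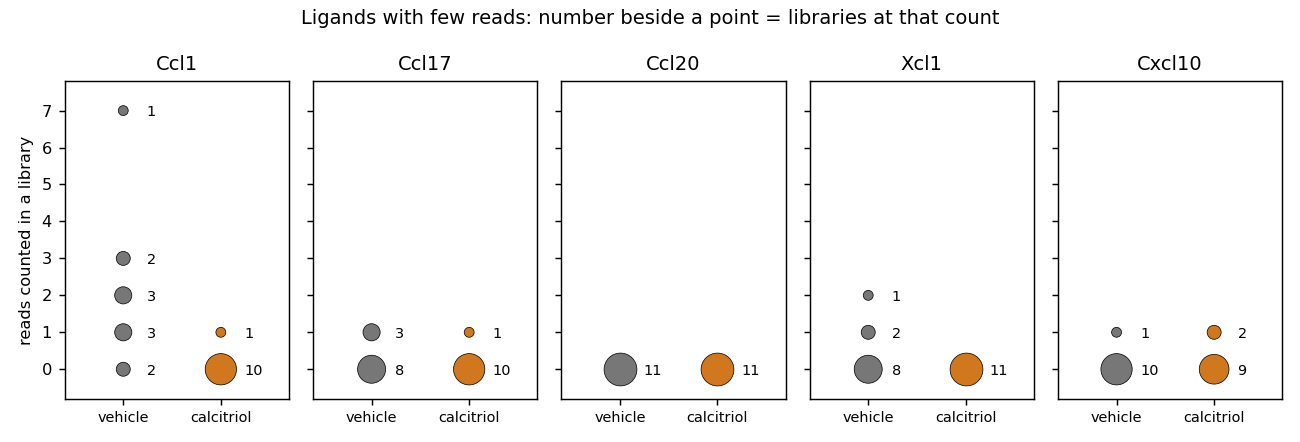
Reads counted in a library (y axis) for the 5 ligands with the fewest reads, in vehicle and calcitriol libraries (x axis). The size of a point and the number beside it give how many of 11 libraries had that count: Ccl1 was at 0 in 2 vehicle and 10 calcitriol libraries, and Ccl20 was at 0 in all.

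Of 32 other chemokine ligands looked up by symbol, 31 matched the table, 15 of them had no count, and only Ccl25 passed the filter. Ccl25, a CCR9 ligand, was at 8.71 ± 1.14 CPM (SD, n = 11) in vehicle and 8.28 ± 1.95 with calcitriol (-0.06 ± 0.12 on the log2 scale, edgeR adjusted p = 0.751), and it overlaps Elavl1 on the opposite strand. Ccl9, which lies between Ccl5 and Ccl3, had 31 reads in vehicle and 29 in calcitriol libraries, and the membrane-bound ligand gene Cxcl16 had 17 in each. The nearest protein-coding genes that passed the filter on either side of the Ccl5, Ccl3 and Ccl4 group, Taf15 and Heatr6, changed by -0.13 ± 0.08 and -0.08 ± 0.05 (edgeR, adjusted p = 0.213 and 0.194).

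Among the receptors of these ligands, Ccr1 rose from 3.19 ± 1.65 to 6.85 ± 2.48 CPM (1.12 ± 0.23, edgeR adjusted p = 0.00051). Ccr3, below the filter, had 81 and 160 reads (edgeR with no filter, adjusted p = 0.0141). Ccr4, the receptor of CCL17 and CCL22, was at 153 ± 27.1 and 172 ± 31.1 CPM (0.17 ± 0.10, edgeR adjusted p = 0.232), and Ccr8, the CCL1 receptor, at 40.6 ± 12.0 and 38.6 ± 5.37 CPM (-0.07 ± 0.13, edgeR adjusted p = 0.747). Cxcr3 fell from 4.86 ± 1.53 to 3.11 ± 1.15 CPM (-0.63 ± 0.20, edgeR adjusted p = 0.0164), a call lost with partner sets summed (-0.59, edgeR adjusted p = 0.117). Ccr6 had 1 read and Xcr1 had 3 in all libraries together.

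**Figure D4:**
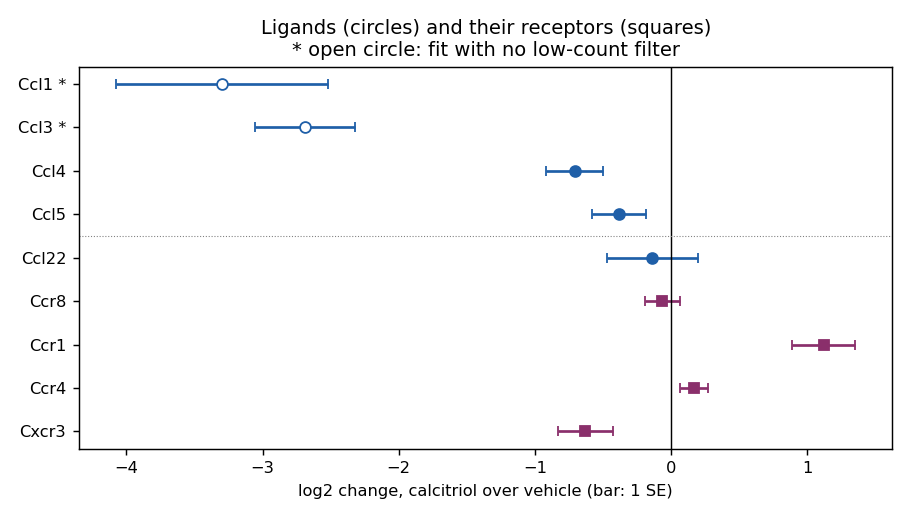
Log2 change of calcitriol over vehicle (x axis, bar 1 SE) for 5 ligands (circles) and 4 of their receptors (squares), 1 gene per row. Ccl1 and Ccl3 (open circles) come from the fit with no low-count filter, where the value of Ccl1 rests on 23 reads. Ccl3 at -2.69 and Ccr1 at 1.12 lie on opposite sides of 0.

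Over all 23 receptors, 12 passed the filter, of which 5 rose and 3 fell, or 66.7% called against 31.5% of all genes tested, with a median log2 change of 0.05 against -0.01. Beside Ccr1, the inflammatory monocyte and T cell receptor Ccr2 rose from 11.6 ± 4.40 to 24.0 ± 5.64 CPM (1.09 ± 0.17, edgeR adjusted p = 2.41e-05) and Cxcr1 rose by 0.97 ± 0.19 (edgeR adjusted p = 0.000232). Ccr7, which guides cells to lymph nodes, fell from 119 ± 25.4 to 63.1 ± 24.3 CPM (-0.94 ± 0.18, edgeR adjusted p = 0.000345). With partner sets summed, 5 receptors were called, and without replicates 1 and 2 of both groups, 6 were called.

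Of 32 genes that carry the receptor signal, 12 rose and 7 fell, or 59.4% called against 31.5% of all genes tested, with a median log2 change of 0.12 against -0.01. The catalytic chain of PI3-kinase gamma, Pik3cg, which G protein subunits activate, rose from 24.6 ± 6.40 to 52.8 ± 10.6 CPM (1.11 ± 0.13, edgeR adjusted p = 5.48e-07). Its alternative regulatory chains went opposite ways. Pik3r6 rose from 0.891 ± 0.911 to 10.9 ± 7.83 CPM (3.51 ± 0.44, edgeR adjusted p = 1.34e-06), with all calcitriol values at 4.07 CPM or more and all vehicle values at 2.90 or less. Pik3r5 fell from 14.1 ± 2.19 to 9.38 ± 1.78 CPM (-0.61 ± 0.10, edgeR adjusted p = 2.21e-05). Tiam1, an exchange factor for the GTPase Rac, rose by 0.64 ± 0.07 (edgeR adjusted p = 2.15e-08).

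Of 36 tested transcription factor genes, mostly factors known to act at cytokine and chemokine genes in T cells, 7 rose and 12 fell, or 52.8% called against 31.5% of all genes tested, with a median log2 change of 0.01 against -0.01. Nfkb2, an NF-kB precursor gene, fell from 266 ± 26.1 to 136 ± 11.2 CPM (-0.97 ± 0.06, edgeR adjusted p = 2.97e-13). Bhlhe40, a helix-loop-helix repressor, fell from 333 ± 68.1 to 118 ± 22.03 CPM (-1.51 ± 0.12, edgeR adjusted p = 6.6e-10), and Tbx21, the TH1 regulator, from 8.12 ± 1.27 to 3.39 ± 0.522 CPM (-1.26 ± 0.11, edgeR adjusted p = 1.29e-09). Calcitriol libraries lay below every vehicle library in 11 of 11 cases for these 3 genes. Maf, an activator of Il4, rose from 101 ± 11.8 to 185 ± 22.4 CPM (0.88 ± 0.07, edgeR adjusted p = 8.1e-11).

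Promoters of the 2 ligands below the filter that fell, Ccl1 and Ccl3, are shown as the 250 bases before the RefSeq start (GRCm38.p6), 5′ to 3′ on the gene's strand, with matches to the motifs searched in capitals. RefSeq promoters matched 7 of the 9 members by symbol, and those of Ccl4 and Ccl5 were not available. The RefSeq start of Ccl1 lies 125878 bases inside its GENCODE model, which has a distant upstream exon.
Ccl1, chr11:82179813-82180062, minus strand: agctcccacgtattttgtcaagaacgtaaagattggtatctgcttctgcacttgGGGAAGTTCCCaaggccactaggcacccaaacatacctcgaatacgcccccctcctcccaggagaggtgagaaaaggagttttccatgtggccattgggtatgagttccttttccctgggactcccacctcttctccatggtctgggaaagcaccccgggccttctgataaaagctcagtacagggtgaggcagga
Ccl3, chr11:83649379-83649628, minus strand: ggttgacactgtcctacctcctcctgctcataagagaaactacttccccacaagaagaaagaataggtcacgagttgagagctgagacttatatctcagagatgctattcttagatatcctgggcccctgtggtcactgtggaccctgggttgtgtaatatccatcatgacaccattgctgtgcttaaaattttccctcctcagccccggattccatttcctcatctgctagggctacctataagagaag

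The NF-kB consensus matched on either strand in 3 of the 7 promoters, those of Ccl1, Ccl20 and Cxcl10, and in 7.25% of 32851 promoters. In Ccl1 overlapping matches on both strands form the capitals, 196 to 186 bases before the start. The Cxcl10 promoter also held an interferon-stimulated element (2.98% of promoters). That of Ccl17 held a STAT site (TTCNNNGAA, 7.02%) and a STAT6 site (the same arms with a longer spacer, 5.85%). The vitamin D response element, a direct repeat of hexamers with a spacer of 3 bases, was in 0.222% of promoters and in 0 of the 7. At that share, 0 matches in 7 promoters says little, and the promoter of Ccl4, the member called, was not searched. The TATA box (TATAAA, gene strand only) was in 7.59% of promoters and in 0 of the 7. The Ccl3 window held none of these 6 motifs, which says only that these letters are not in it.

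Markers of other cell types that make these ligands were examined beside the results. Of 7 CD8 T cell and natural killer cell markers, 6 had a count, and Ncr1 was at 0. Their sum ran from 9.27 to 33.2 CPM with a median of 13.9 in vehicle, and from 31.9 to 176 with a median of 91.7 in calcitriol libraries. That sum was mainly the granzyme gene Gzma, which rose from 8.80 ± 7.77 to 77.8 ± 43.0 CPM (3.06 ± 0.41, edgeR adjusted p = 6.24e-06), and the perforin gene Prf1, below the filter, rose from 85 to 170 reads (1.06 on the log2 scale, edgeR with no filter, adjusted p = 0.00554). Cd8b1 had 555 and 530 reads (-0.06 ± 0.16, edgeR adjusted p = 0.827), Cd8a 6 and 4, Klrd1 4 and 0, and Klrb1c 5 and 2. Of 9 dendritic cell markers, 8 had a count, with sums of 81.4 to 119 CPM in vehicle and 78.9 to 131 in calcitriol libraries that were mainly H2-Ab1, and Clec9a was at 0. Of these, H2-Eb1 rose and Zbtb46 fell. Of 8 macrophage and monocyte markers, 5 had a count and Fcgr1, C1qa and C1qb were at 0, with sums of 4.29 to 9.45 and 6.18 to 13.9 CPM. Among them Adgre1, below the filter, rose from 15 to 50 reads (1.68 on the log2 scale, edgeR with no filter, adjusted p = 0.0187). Cd68 was at 6.02 CPM in vehicle and 8.12 CPM in calcitriol libraries (0.42 ± 0.17, edgeR adjusted p = 0.0541, and 0.0487 with no filter). The TH1 markers Tbx21, Cxcr3 and Ifng summed to 10.03 to 16.4 CPM in vehicle and to 4.63 to 9.51 in calcitriol libraries, and Ifng had 8 and 12 reads. The part of these cells in the ligand results was not tested.

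Among the members that passed the filter, deviations from the group means were described by Pearson's r over 22 libraries, which share depth and sets. Ccl5 and Ccl22 had r = 0.60. Both were highest in vehicle replicates 3 and 4 and, among calcitriol libraries, in replicate 3. The higher Ccl22 levels of replicates 3 to 6 in both groups enter this r, and what these libraries share was not tested. Ccl4 had r = 0.24 with Ccl5 and 0.00 with Ccl22. The gene most like Ccl4 in this measure among 10474 genes was Wbp4, with r = 0.68, followed by Ube2d2a, Dph3, Tprn and Utp23, at 0.63, 0.63, 0.62 and 0.61. None of these 5 was called with calcitriol. They hold the largest of 10474 correlations over 22 libraries. Whether such values exceed those expected among unrelated genes was not tested.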

How the data were processed

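The authors deposited raw read counts per Ensembl gene, and each of the 22 columns carries the title of 1 sample. The submitters' processing notes name HTSeq 0.13.5, STAR 2.7.10a and the build GRCm38. Roles and settings: not given in the sources used here. Total RNA was sequenced after a stranded library kit, per the labels' protocols. Symbols and coordinates came from GENCODE M21 (345 identifiers had no symbol), and promoters from RefSeq GRCm38.p6.

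Groups were taken from the treatment label and replicates numbered in accession order. Genes passed filterByExpr and were tested with edgeR 4.0.16 (R 4.3.3), TMM scaling, the robust quasi-likelihood F test and Benjamini-Hochberg adjustment over 11905 genes. Each SE is the log2 change divided by the root of F. Levels are TMM-normalised CPM. Members below the filter were described by counts with exact intervals and tested in a fit with no filter. Ligand ratios used two-sided permutation tests with 100000 resamples. The edgeR and permutation steps were tested on simulated data.

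The members, lists and tests were chosen with earlier results of these data known. Named were all members, their receptors (1 receptor and 1 sequence are not reported here), up to 4 called genes of smallest p in each other list, and the 5 genes most like the called member; other genes were chosen after their values were seen. Alternatives were DESeq2 1.42.0, limma-voom (limma 3.58.1), other scalings and filters, non-robust dispersion, 5 surrogate variables (sva 3.50.0), each library left out, 4 libraries left out, and partner sets summed.
The Ccl3 ratios and the alternatives of the fit with no filter were added after seeing the data. Likeness was the correlation of log2 CPM deviations from group means, among tested genes whose mean level reached 2 CPM.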

Additional observations from a re-analysis of the deposited data

How the results depend on the processing

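Of the alternatives, those that changed a result were few. The count of members called, 1 in the chosen fit, was 3 with no low-count filter (Ccl1, Ccl3 and Ccl4), 2 with surrogate variables (Ccl4 and Ccl5) and 2 with partner sets summed (Ccl3 and Ccl4); at a filter of 5 CPM in 11 libraries no member was left to test. Fewer samples were compared with sets summed, where 2357 genes and 5 receptors were called, against 3755 and 8. With the 5 CPM filter 3 receptors were called, fewer receptors being tested, and without replicates 1 and 2 of both groups 6 were called. The Ccl4 to Ccl5 ratio passed only without vehicle replicate 3, and ran from -0.54 to -0.26 over the libraries left out. Leaving out vehicle replicate 3 or 4 turned the sign of Ccl22 (0.060 and 0.031) and of Ccr8 (0.023 and 0.00083, with a range from -0.11 over the libraries left out), neither of which was called; the cause was not tested. Ccr4 passed with surrogate variables (0.16, edgeR adjusted p = 0.000996). No paired analysis was run because the labels give no replicate numbers or shared cultures. A fit blocked on sets of libraries was not run either. Read depth limits Ccl1, Ccl17, Ccl20, Xcl1 and Cxcl10, each with 23 reads or fewer in all.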
